A study of Mus musculus with 28 samples.

Results

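The comparison was between untreated and starved mouse embryonic fibroblasts that lack SIRT7, read from the chromatin states that the authors assigned to every 200 bp of the genome. SirT7-/- (KO) cells came from embryos at day 14.5, strain 129s2, and were used at passages 3 to 4. Treatment was NT or GS, abbreviations that the labels leave unexpanded, in a series whose title concerns glucose starvation. Each KO condition had 5 libraries, namely 2 of H3K27me3 ChIP, 2 of macroH2A1.1 ChIP (mH2A1 in the sample names) and 1 paired-end input, all from cells crosslinked with formaldehyde. How many embryos or lines the KO cells came from is not stated. For each condition the authors deposited 1 segmentation with 4 states, U1 to U4, which combined both replicates of both targets. All 12361703 bins of chromosomes 1 to 19 (2472 Mb) were compared, out of 13274547 bins (2655 Mb) on 22 chromosomes. WT-NT and WT-GS, from wild-type cells given the same treatments and with 1 segmentation of 4 states each, were set beside the KO values.

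H3K27me3 is written by Polycomb repressive complex 2, and in fibroblasts it forms both short islands at silent developmental genes and broad blankets over silent regions. MacroH2A1 is a histone H2A variant with a large globular macrodomain, of which the macroH2A1.1 splice form can bind ADP-ribose, and it too spreads over broad silent domains. SIRT7 is a nuclear, NAD-dependent sirtuin, one of the enzymes that couple chromatin to the metabolic state of the cell. A segmentation reduces such signals to a label per bin, so a change of state means that the label differed between NT and GS.

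The sources used here do not say what each state stands for. U1 covered most of the genome, including the unassembled initial 3 Mb of the autosomes, where 2 of 285000 bins were not U1 in each KO segmentation. U1 is therefore called unmarked below, and U2, U3 and U4 together are called marked. With 1 segmentation per condition there was no replicate error and no test, so gained, lost, higher and lower describe these segmentations only, and an SD over chromosomes describes spread along the genome. The loss of SIRT7 could not be checked, since the series lists SIRT7 ChIP for WT cells only. An mm9 gene annotation was not used here, so loci are given by mm9 position, counted from 1, without gene names.

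The KO-NT segmentation stood apart from the other 3 before any comparison was made. It had the fewest segments on the autosomes, 232353, against 331492 in KO-GS, 348157 in WT-NT and 314776 in WT-GS. All 4 segmentations gave the same state to 81.8% of bins. Where 3 shared a state and 1 differed, the odd one was KO-NT in 31.6% of bins, KO-GS in 23.1%, WT-NT in 22.9% and WT-GS in 22.4%. The bins odd in KO-NT covered 94.6 Mb, and in 42.3 Mb of these KO-NT was U1 while the others were U2. KO-NT enters every KO value below, and the part of its coarser segmentation in those values was not tested.

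Between NT and GS, 10.8% of autosomal bins (1335500 bins, 267 Mb) differed in state in KO cells, against 9.60% (237 Mb) in WT cells. The KO share exceeded the WT share on 19 of 19 autosomes. It ran from 9.03% on chromosome 7 to 13.3% on chromosome 11, with an SD of 1.06 over chromosomes. Gain of mark was the most frequent kind of change. In KO cells 116 Mb passed from U1 to a marked state (43.4% of the changed sequence), 86.2 Mb passed from a marked state to U1 (32.3%) and 64.9 Mb switched between marked states (24.3%). More sequence was gained than lost on 18 of 19 autosomes. Marked sequence accordingly covered 26.5% of the autosomes in KO-NT and 27.7% in KO-GS. Of the sequence marked in KO-NT 13.2% was unmarked in KO-GS, and of that marked in KO-GS 16.9% had been unmarked in KO-NT. In WT cells the gained, lost and switched sequence came to 87.2, 77.1 and 73.2 Mb.

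U4 was the state whose share moved in one direction on every autosome. It covered 1.01% of the autosomes in KO-NT and 1.85% in KO-GS, a ratio of 1.84. The difference was positive on 19 of 19 chromosomes, from 0.419 percentage points on chromosome 3 to 1.75 on chromosome 11. In WT cells the U4 share was 2.12% in NT and 1.71% in GS, lower on 19 of 19, so KO-NT had the lowest U4 share of the 4 segmentations and WT-NT the highest. U4 segments were short, with a median of 1 bin (0.2 kb) in both KO segmentations, and the difference of 0.843 points came to 0.498 with states read in 1 kb bins and to 0.380 once segments under 1 kb had been joined to a neighbour.

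U1 covered 73.5% in KO-NT against 72.3% in KO-GS and was lower in GS on 18 of 19 chromosomes, the exception being chromosome 16, where it was 0.556 points higher. U2 went from 17.2 to 17.6%, higher on 13 chromosomes and lower on 6. U3 covered nearly the same share in both, 8.30% in NT and 8.23% in GS, and was higher on 7 chromosomes and lower on 12. That difference of -0.0614 points turned positive in 1 kb bins (0.0618) and when short segments were joined (0.100), so U3 had no settled direction in KO. In WT cells U3 was higher in GS on 19 of 19 chromosomes (7.69 and 8.40%). Chromosome 11 held the extreme KO difference for U1 (-3.63 points), U2 (2.29 points) and U4.

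**Figure D1:**
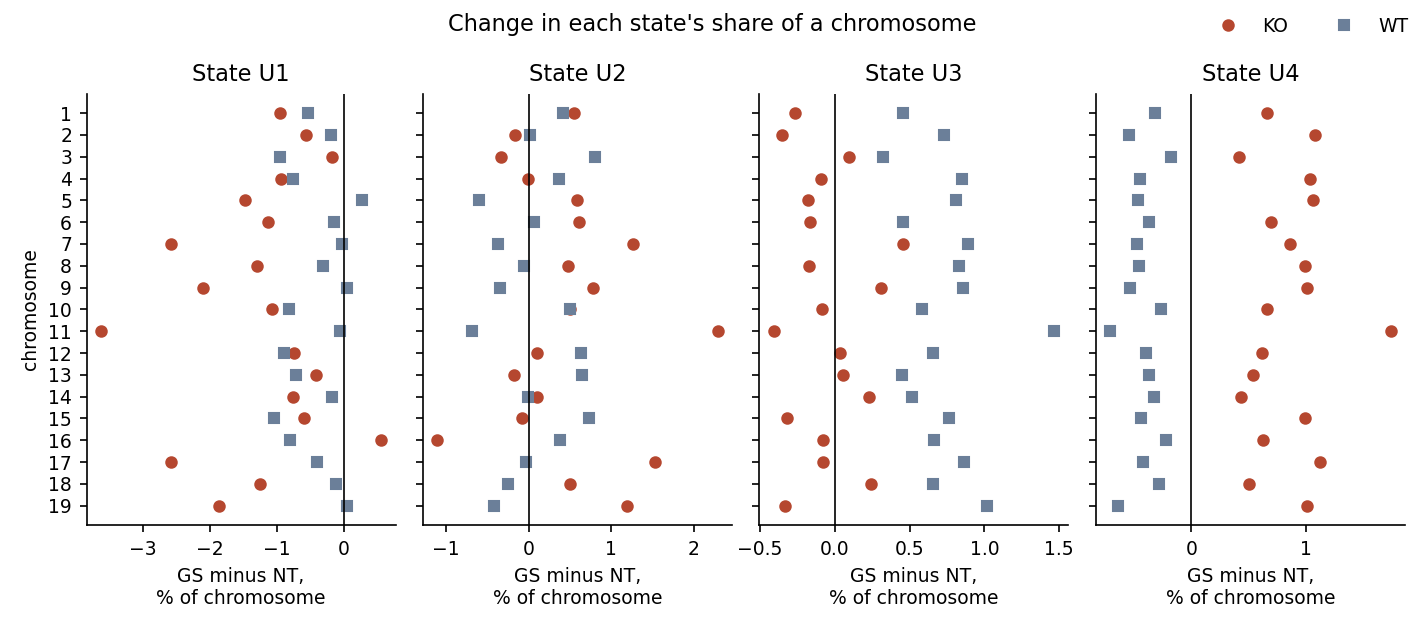
GS minus NT in the share of each chromosome held by a state, in percentage points, for KO (circles) and WT (squares), with 1 point per autosome and 1 segmentation per condition. U4 lies above 0 on all 19 chromosomes in KO and below 0 on all 19 in WT, and U3 lies on both sides of 0 in KO.

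The exchanges behind these shares fell into a nearly balanced pair and several one-sided ones. U1 and U2 traded 84.2 Mb one way and 73.3 Mb the other, together 158 Mb of the 267 Mb that changed. Their net of 10.9 Mb went toward U2 on 14 chromosomes and toward U1 on 5. U1 and U3 were unequal partners, with 29.5 Mb from U1 to U3 and 12.2 Mb back, a ratio of 2.42 that favoured U3 on 19 of 19 chromosomes. In WT cells the same exchange was nearly even, with 12.1 Mb from U1 to U3 and 12.2 Mb back, and U1 to U2 against U2 to U1 was 74.4 against 63.9 Mb.

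Within marked sequence the flow ran toward U4. U3 to U4 covered 20.3 Mb and U4 to U3 covered 4.68 Mb, a ratio of 4.33, with the larger flow toward U4 on 19 of 19 chromosomes. U2 to U4 covered 6.80 Mb against 3.24 Mb for the return. U3 to U2 covered 16.6 Mb and exceeded U2 to U3, with 13.4 Mb, on 19 of 19 chromosomes. WT cells had the opposite balance for U3 and U4, with 7.39 Mb from U3 to U4 and 18.1 Mb from U4 to U3, and for U2 and U3, with 21.6 Mb from U2 to U3 and 14.8 Mb back. The KO net from U3 to U4, 15.6 Mb, was 10.7 Mb in 1 kb bins and 8.30 Mb when short segments were joined.

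**Figure D2:**
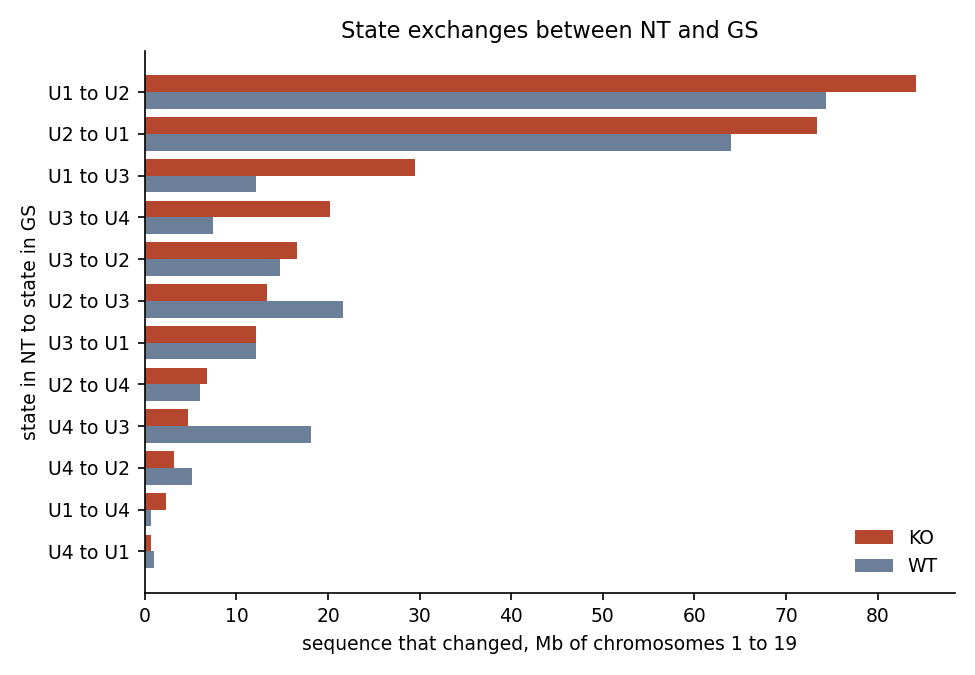
Sequence of chromosomes 1 to 19 in Mb for each of the 12 directed exchanges between the NT and GS states, in KO and WT cells, ordered by the KO value. The KO bars for U1 to U3 (29.5 Mb) and U3 to U4 (20.3 Mb) are more than those of WT (12.1 and 7.39 Mb), and the WT bar for U4 to U3 (18.1 Mb) is more than that of KO (4.68 Mb).

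The steady share of U3 therefore covered a large turnover. In KO cells 47.5 Mb entered U3 and 49.0 Mb left it, a net of -1.52 Mb in a state that covered 205 Mb in KO-NT. Its largest intake was from U1 (29.5 Mb), beside 13.4 Mb from U2 and 4.68 Mb from U4. Its largest loss was to U4 (20.3 Mb), beside 16.6 Mb to U2 and 12.2 Mb to U1. U4 took in 29.4 Mb and gave up 8.55 Mb. Only 35.8% of the U4 bins of KO-GS had been U4 in KO-NT, and 44.2% had been U3. Read from the NT side, 93.6% of U1, 78.0% of U2, 76.1% of U3 and 65.7% of U4 kept their state. The corresponding WT shares were 94.9, 82.2, 81.9 and 53.6%, so on this side U4 was the 1 state that KO cells kept more often than WT cells. From the GS side U4 went the other way, since 66.6% of the U4 bins of WT-GS had been U4 in WT-NT, against the 35.8% in KO.

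Changed sequence lay in many short runs, but most of its length lay in longer ones. A changed run is a stretch of adjacent bins with the same NT state and the same, different, GS state. KO cells had 244734 such runs with a median of 0.4 kb, and 49.0% were a single bin. Runs of 1 kb or more nevertheless held 79.4% of the changed length, and the 2663 runs of 10 kb or more held 14.2%. Length depended on the states exchanged. U1 to U2 runs had a median of 2.2 kb and a maximum of 52.8 kb, and U2 to U1 runs a median of 2.8 kb and a maximum of 49.8 kb. U1 to U3 runs were shorter, with a median of 1.0 kb and a maximum of 15.6 kb. U3 to U4 runs, the most numerous at 61969, had a median of 0.2 kb and a maximum of 4.4 kb. Of the 2663 runs of 10 kb or more, 1515 were losses of U2 and 1110 were gains of U2 from U1.

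Counted as gain and loss of any mark, the largest part of the change was movement of domain borders. A domain is an unbroken run of marked bins. Gained sequence lay at the border of a domain that was marked in both treatments for 54.3 Mb (46.8%), closed a gap between such sequence for 41.0 Mb (35.3%) and formed a new, separate domain for 20.4 Mb (17.6%). Lost sequence was divided in nearly the same way, with 39.1 Mb at a border (45.4%), 27.3 Mb opening a gap (31.7%) and 19.3 Mb as a whole domain (22.5%). By number of runs, borders made up 57.7% of gains and 58.7% of losses. Closed gaps were long for a changed run, with a median of 4.2 kb against 1.4 kb for gained borders. Opened gaps were likewise long, at 4.4 kb against 1.4 kb for lost borders. The WT medians were 4.4 against 1.2 kb for gains and 4.0 against 1.2 kb for losses. In WT cells closed gaps held 29.3% of the gained length and new domains 22.3%.

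Gains and losses differed in the states they were made of. Of the lost length in KO cells, 70.7% lay in runs that had been U2 alone and 19.6% in runs that had held several marked states. Of the gained length, 43.1% lay in runs that became U2 alone and 41.4% in runs that became a mixture. WT cells showed the reverse, with mixtures in 17.7% of gained and 28.9% of lost length. Runs from U1 to U4 lay mostly inside such mixed gains, 68.5% of them between 2 other changed runs and 65.5% between 2 that had also been U1.

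**Figure D3:**
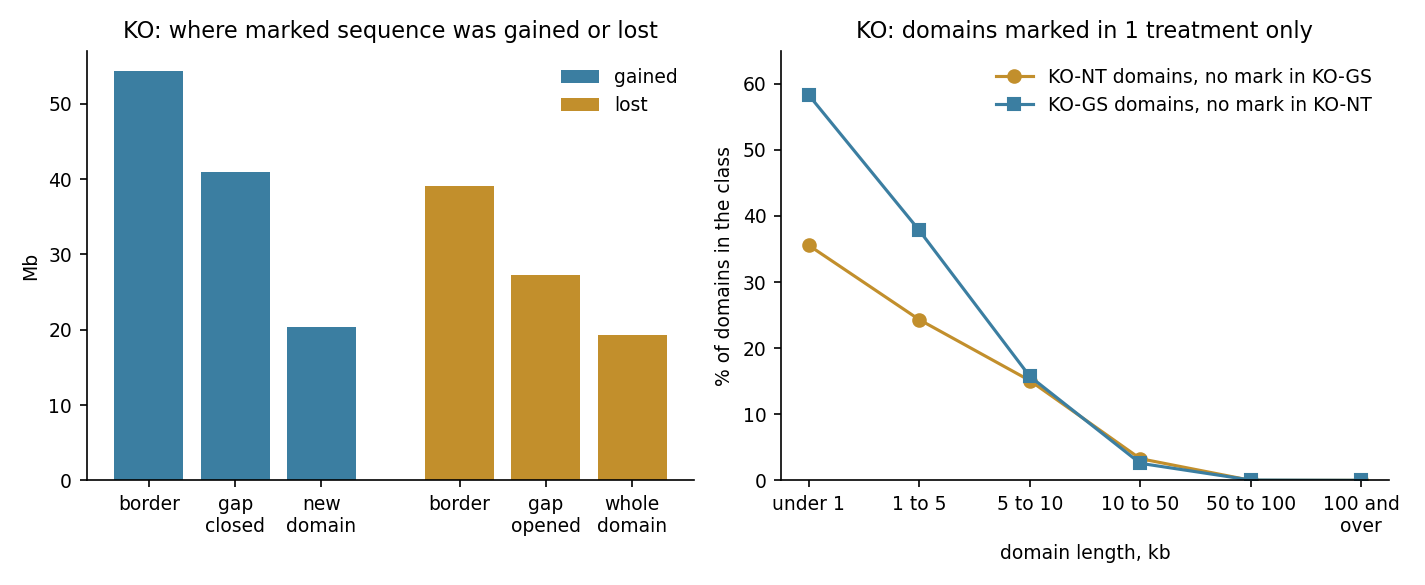
Left, KO sequence that gained or lost a mark between NT and GS, in Mb, by its position relative to marked sequence. Right, the percentage of KO domains with no marked bin in the other treatment by length class in kb, which is 58.3% of KO-GS and 35.6% of KO-NT domains under 1 kb and at most 0.0430% of domains of 50 kb or more.

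State by state, exchanges had their own preferred positions. A changed run was called border where it lay between stable bins of its NT state and of its GS state, inserted where stable bins of its NT state lay on both sides, filled where stable bins of its GS state did, and mixed otherwise. Over all KO changes 23.9% of length was border, 14.7% inserted, 12.2% filled and 49.2% mixed, where mixed means that at least 1 neighbour had itself changed or held a state other than these. Mixed runs held 36.1% in 1 kb bins and 30.8% when short segments were joined. U3 to U4 was the exchange most often inserted among the 6 most extensive, with 42.3% of its length inside stable U3. The return from U4 to U3 was filled for 29.98% of its length, with stable U3 on both sides. U2 to U1 was border for 31.7% and filled for 20.5%. Exchanges of U2 with U3 were nearly all mixed, 89.3% from U2 to U3 and 93.0% from U3 to U2.

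Distances to the nearest edge gave the same picture without classes. Bins that lost their mark lay a median of 3.4 kb inside the edge of their KO-NT domain, and 61.9% lay within 5 kb of it. Over all bins marked in KO-NT the median was 9.4 kb and 34.3% lay within 5 kb. Bins that gained a mark lay a median of 2.4 kb outside marked sequence, with 73.6% within 5 kb, against 40.8 kb and 15.5% over all unmarked bins. U3 entered and left unmarked sequence closest to the edge, with a median of 1.6 kb for both U1 to U3 and U3 to U1, against 2.6 kb for U1 to U2 and 3.8 kb for U2 to U1. U3 to U4 changes lay deeper inside domains than U3 as a whole, at a median of 12.2 kb against 6.8 kb. Bins that switched between marked states lay at 10.8 kb, near the 9.4 kb of all marked bins.

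Domains without any mark in the other treatment were mostly short. KO-NT had 35585 domains, of which 5268 (14.8%, 19.5 Mb) held no marked bin in KO-GS. KO-GS had 35061 domains, of which 7718 (22.01%, 20.6 Mb) held none in KO-NT. These counts include domains that bordered on the opposite change and so exceed the separate domains above. By length, 35.6% of KO-NT domains under 1 kb had no mark in GS, 24.3% of those from 1 to 5 kb, 15.1% from 5 to 10 kb and 3.28% from 10 to 50 kb. None of the 2175 domains from 50 to 100 kb or of the 996 longer ones was without any mark in GS, although only 42.4% and 38.3% of them stayed marked in every bin. Of the KO-GS domains of 50 kb or more, 1 had no mark in KO-NT. Domains appearing in GS were shorter, with a median of 1.6 kb against 2.4 kb for those lost, and 58.3% of KO-GS domains under 1 kb were absent from KO-NT.

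Domains also merged more often than they split. In KO-GS 5248 domains each spanned 2 or more KO-NT domains, up to 13, whereas 3696 KO-NT domains were divided among several in KO-GS, up to 10. Domains of 100 kb or more numbered 996 in KO-NT against 1205 in KO-GS, with summed lengths of 165 and 204 Mb. In WT cells the balance lay the other way, with 3755 merged and 4204 divided domains, and with 1537 domains of 100 kb or more in NT and 1492 in GS.

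Gain and loss of U2 took place in different surroundings. Windows of 100 kb were grouped by how much U3 and U4 they held in WT-NT, a segmentation that shares no library with either KO one. In the 2883 windows that held U2 but no U3 or U4 in WT-NT, KO cells lost U2 in 7.16% of bins and gained it from U1 in 4.30%, a ratio of gain to loss of 0.601. In the 5389 windows with up to 5% U3 and U4 the ratio was 0.766, in the 4170 with 5 to 20% it was 2.00, and in the 2828 with 20 to 50% it was 3.45. In the 1378 windows with over 50% U3 and U4, U2 was gained in 3.34% of bins and lost in 0.617%, a ratio of 5.42. The ratio was thus higher in each group than in the one before. The remaining 8064 windows held no mark in WT-NT and changed in 0.323% of bins.

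The contrast recurred along the genome. In windows over 50% U3 and U4 gain exceeded loss of U2 on 19 of 19 autosomes, with ratios from 2.12 (chromosome 18) to 12.6 (chromosome 4). In windows with U2 but no U3 or U4 loss exceeded gain on 16 of 19, with ratios from 0.344 (chromosome 8) to 1.86 (chromosome 7). The ratio of U1 to U3 over U3 to U1 was above 1 in all groups and had no such steady order, at 1.93 in windows with U2 but no U3 or U4, 1.62 with up to 5%, 1.88 with 5 to 20%, 2.66 with 20 to 50% and 3.93 over 50%. Marked sequence in KO cells was accordingly lower in GS in the first 2 groups that held marks (27.9 against 25.1%, and 32.3 against 31.1%) and higher in GS in the group over 50% (76.5 against 83.3%). WT cells, with windows grouped by KO-NT, had the opposite order, from a gain to loss ratio of 1.90 in windows with U2 but no U3 or U4 to 0.546 in those over 50%. The difference between genotypes was not tested, with 1 segmentation per condition.

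Gain of mark covered its largest share of bins, and exceeded loss most, toward the distal ends of chromosomes. With each autosome divided into 10 equal parts after its initial 3 Mb, the distal part gained a mark in 6.60% of bins and lost it in 2.53%, against 4.22% and 4.39% in the part nearest the centromere. U1 to U2, U1 to U3 and U3 to U4 had their highest shares of the 10 parts in the distal part (4.67, 1.80 and 1.45%), and U2 to U1 its lowest (2.05%). Averaged over chromosomes, the net gain was 3.96 points in the distal part (SD 2.72) and 0.976 in the rest (SD 1.08), and the distal part exceeded the rest on 16 of 19. Chromosomes 3, 13 and 18 were the exceptions, and the distal part of chromosome 13 had a net of -2.01 points. In WT cells the mean net of the distal part was -0.370 points. The distal part held the most marked sequence in KO-NT (31.8%). Changed bins per 100 bins marked in KO-NT were 40.3 there, 45.7 in the part nearest the centromere and 38.9 in the lowest part. For the ratio of gain to loss of U2 in windows over 50% U3 and U4 the value without the distal part was 5.11.

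**Figure D4:**
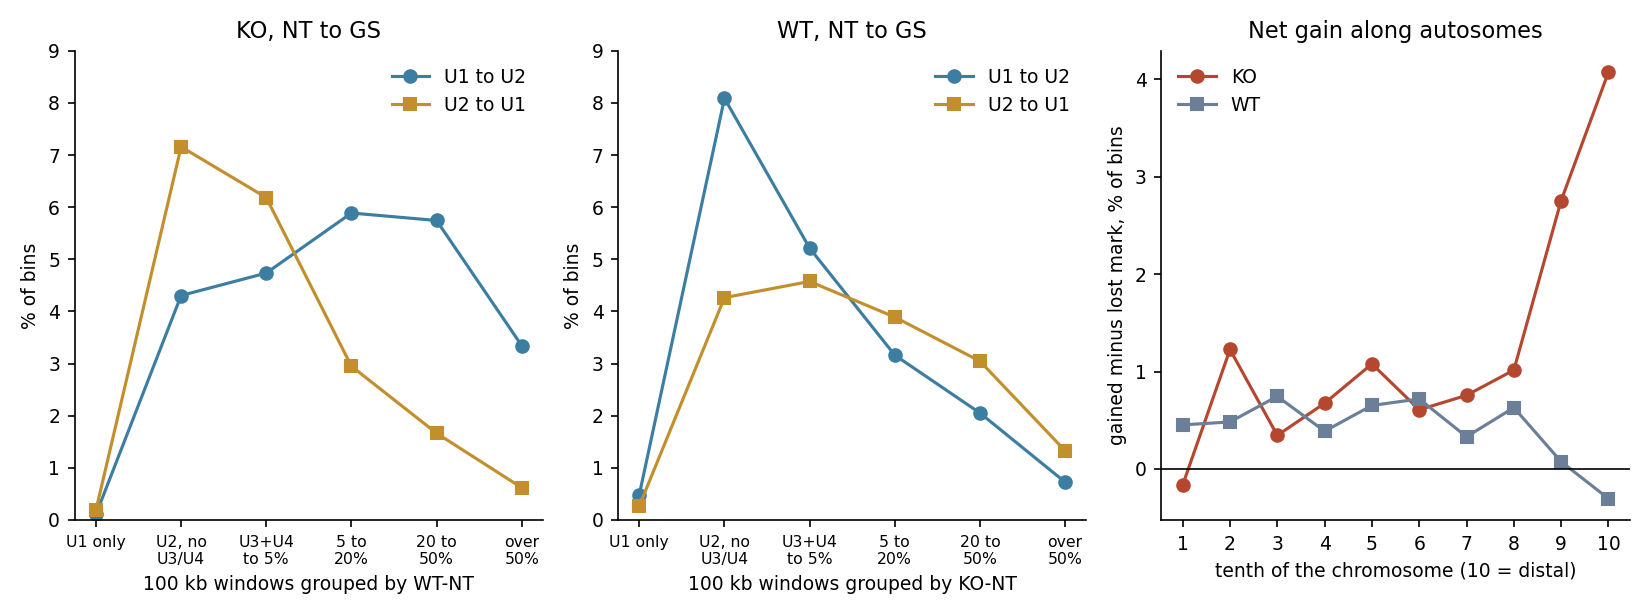
Left and centre, the mean percentage of bins in 100 kb windows that went from U1 to U2 or from U2 to U1 between NT and GS, for KO windows grouped by their states in WT-NT and WT windows grouped by KO-NT. Right, gained minus lost mark in percentage points for each of 10 equal parts of the autosomes, where KO reaches its highest value in the distal part and WT its lowest.

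Change was spread over most windows and rarely covered a whole one. Of 24712 windows of 100 kb, 8001 (32.4%) had no changed bin in KO cells, and the median was 6.4% of bins. At least 25% of bins differed in 3733 windows (2608 in WT), and at least 50% in 163 windows, or 0.660% (82 in WT). Counted by net marked sequence, 958 windows gained and 715 lost at least 20 percentage points, against 511 and 359 in WT. Gain covered at least 10% of bins in 4289 windows (17.4% of all windows) and loss in 3023 (12.2%). Both did so in 644, which is 15.0% of the gain windows and 21.3% of the loss windows. The longest unbroken stretches of windows past 20 points spanned 500 kb for gain and 500 kb for loss.

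The 3 windows with the largest gains of U2 passed from almost unmarked to mostly U2. On chromosome 2 from 167800001 to 167900000, U2 covered 3.0% in KO-NT against 82.2% in KO-GS, and 81.8% of bins changed, the largest share of any window. U2 went the same way there in WT cells, from 13.6 to 75.0%. On chromosome 1 from 135600001 to 135700000, U2 covered 6.6% and then 79.4% in KO cells, and 14.8 and 81.8% in WT cells. On chromosome 4 from 62900001 to 63000000 it covered 0.6 and 63.2% in KO cells and 14.6 and 56.4% in WT cells. These 3 gains of U2 were thus present in both genotypes.

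Losses of U2 at the top of the list were deeper in KO than in WT cells. On chromosome 5 from 45500001 to 45600000, U2 covered 99.6% in KO-NT against 23.8% in KO-GS, against 98.4 and 74.6% in WT. On chromosome 7 from 98900001 to 99000000 it covered 96.6 and 25.4% in KO cells and 91.0 and 62.2% in WT cells. On chromosome 16 from 26000001 to 26100000 it covered 74.4 and 5.6% in KO cells and 76.0 and 31.8% in WT cells. The windows were chosen for the size of the KO change, so a smaller change in WT cells at these positions is no sign of a difference between genotypes.

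The other 5 of the 10 most changed windows went with small or opposite net differences of U2 in WT cells. State nevertheless differed between WT-NT and WT-GS in 25.4 to 37% of their bins. On chromosome 8 from 105600001 to 105700000, U2 covered 86.6% in KO-NT against 19.2% in KO-GS, whereas in WT cells it went the other way, from 48.2 to 70.8%. On chromosome 13 from 75400001 to 75500000, U2 went from 68.6 to 5.4% in KO cells and from 42.8 to 40.8% in WT cells. On chromosome 17 from 61900001 to 62000000 the KO values were 78.4 and 32.8% and the WT values 60.2 and 62.0%. A pair of gains of this kind, 1 on chromosome 19 from 38700001 to 38800000 (U2 17.8 and 61.6% in KO, 45.2 and 48.4% in WT) and 1 on chromosome 5 from 139500001 to 139600000 (U2 23.6 and 68.0% in KO, 53.6 and 47.4% in WT), brought KO-GS above both WT values. The latter window also went from 11.6 to 25.8% U3 in KO cells, and from 19.6 to 31.6% in WT cells. All 5 windows were chosen for the size of the KO change, which favours extreme KO values. The contrast with WT cells at these positions is therefore no sign of a difference between genotypes. With 1 Mb windows the most changed one was chromosome 5 from 12000001 to 13000000, at 35.8%, and 2 of these 10 windows lay in the 10 most changed.

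**Figure D5:**
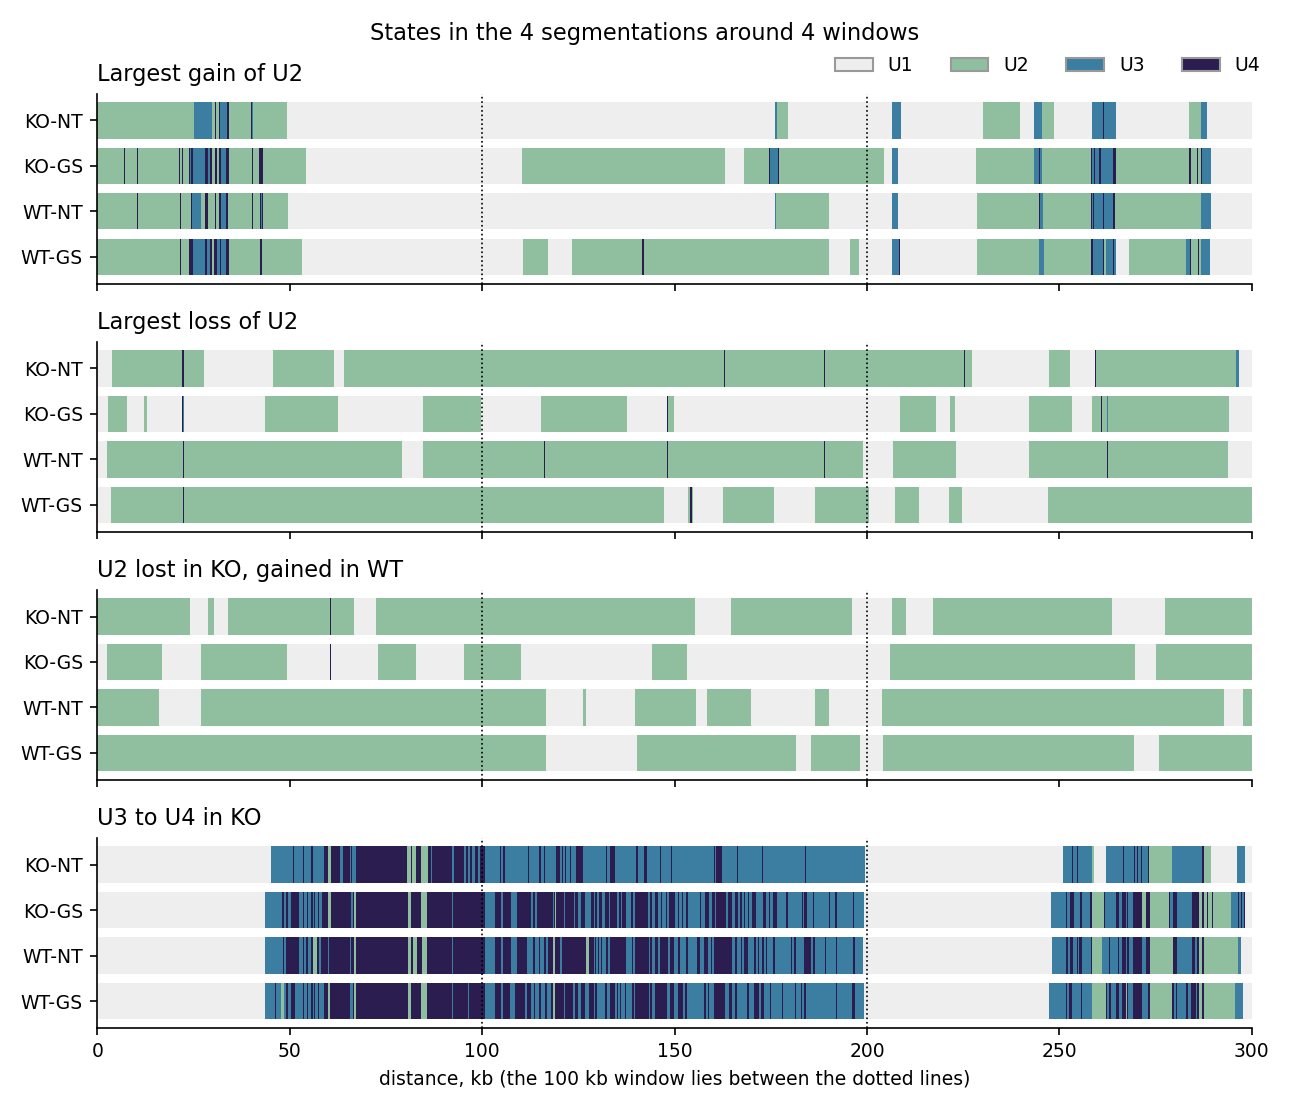
States U1 to U4 along 300 kb around 4 windows of 100 kb (between the dotted lines) in the 4 segmentations, with distance in kb. From top to bottom they are the chromosome 2 window with the largest gain of U2, the chromosome 5 window with the largest loss, the chromosome 8 window where U2 went from 86.6 to 19.2% in KO and from 48.2 to 70.8% in WT, and the chromosome 8 window where U4 went from 12 to 48.0% in KO.

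The same 3 windows had both the largest losses of U3 and the largest gains of U4, in domains that stayed marked throughout. On chromosome 8 from 125200001 to 125300000, U3 covered 87.4% in KO-NT against 50.8% in KO-GS, and U4 covered 12 and 48.0%. On chromosome 4 from 136400001 to 136500000, U3 covered 79.4 and 46.4% and U4 17.6 and 51.2%. On chromosome 15 from 78500001 to 78600000, U3 covered 72.4 and 40.6% and U4 15.0 and 52.6%. U4 in WT-NT and WT-GS was 47.4 and 41.4% on chromosome 8, 47.4 and 47.6% on chromosome 4, and 56.0 and 45.0% on chromosome 15. KO-GS thus lay above both WT values at the former 2 and between them on chromosome 15. KO-NT was the lowest of the 4 segmentations in U4 at each of them. The windows were chosen for the KO rise in U4, which favours a low KO-NT value.

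The largest gains of U3 took place in windows where WT cells already carried it. On chromosome 5 from 37500001 to 37600000, U3 covered 39.8% in KO-NT against 79.6% in KO-GS, beside 79.4% in WT-NT against 83.6% in WT-GS. On chromosome 5 from 129800001 to 129900000 the values in the same order were 29.2, 70.8, 69.2 and 59.6%. On chromosome 12 from 87800001 to 87900000 they were 58.0, 93.2, 87.2 and 86.6%. In these windows too KO-NT alone was low, which their choice by the rise from KO-NT to KO-GS favours. The largest losses of U4 were small beside its gains, from 29.2 to 15.0% on chromosome 8 from 116400001 to 116500000, from 34 to 21.4% on chromosome 14 from 23400001 to 23500000, and from 25.4 to 13.8% on chromosome 14 from 46700001 to 46800000. U4 was also lower in WT-GS than in WT-NT at each of these 3 (23.4 and 17.0%, 25.8 and 23.2%, 14.8 and 12.8%).

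The longest single runs and domains belonged to U2. The longest run from U1 to U2, 52.8 kb on chromosome 2 from 167810401 to 167863200, was also the longest gained domain and lay inside the most changed window. It was unmarked throughout in WT-NT and 87.9% marked in WT-GS. The second longest gained domain, 47.8 kb on chromosome 4 from 62937601 to 62985400, was 30.5% marked in WT-NT and 100% in WT-GS. The longest U1 to U2 run that joined existing U2 was 48.0 kb on chromosome 1 from 135650001 to 135698000. From U2 to U1 the longest runs were 49.8 kb on chromosome 2 from 7227601 to 7277400, 47.4 kb on chromosome 12 from 11665401 to 11712800 and 44.6 kb on chromosome 10 from 91509601 to 91554200. In WT cells U2 in these 3 went from 68.3% in NT to 99.6% in GS, from 75.5 to 79.7%, and from 23.3 to 8.97%, so the last went in the KO direction.

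The 10 longest lost domains, from 27 to 32.8 kb, were all mostly or wholly U2 in KO-NT. The longest lay on chromosome 2 from 66611401 to 66644200 and was 33.5% marked in WT-NT and 89.0% in WT-GS. The next lay on chromosome 12 from 69737801 to 69769800 (32.0 kb, 56.3 and 69.4% marked in WT) and on chromosome 8 from 105664601 to 105696000 (31.4 kb, 27.4 and 87.9%). Of these 10, WT cells had more marked sequence in GS than in NT at 9, against the KO direction. The exception lay on chromosome 16 from 55188801 to 55216200. Of the 10 longest gained domains, from 23.0 to 52.8 kb, WT cells had more marked sequence in GS at 7, the KO direction. Over all windows past 20 points the WT direction was more even, opposite in 411 and the same in 296 of the 715 loss windows, and opposite in 454 and the same in 462 of the 958 gain windows. How many of all windows or domains had more marked sequence in WT-GS was not counted. The counts of domains and of windows therefore stand without a background, and neither likeness nor opposition of the genotypes is read from them. Marked sequence in WT cells was 30.6% of autosomes in NT and 31.0% in GS. In windows with U2 but no U3 or U4 in KO-NT it was 30.1 and 33.9%. The nearest marked bin in the other treatment lay 1.2 to 49.0 kb from the lost domains and 2.2 to 67.2 kb from the gained ones.

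Runs that involved U3 or U4 were short even at their longest. The longest from U1 to U3 was 15.6 kb on chromosome 6 from 54866601 to 54882200, followed by 14.8 kb on chromosome 6 from 113845801 to 113860600 and 14.0 kb on chromosome 5 from 28038401 to 28052400. In WT-NT these 3 were 47.4, 75.7 and 97.1% U3. The longest from U3 to U4 was 4.4 kb on chromosome 15 from 78515401 to 78519800, inside the chromosome 15 window above and 54.5% U4 in WT-NT. The longest from U3 to U2 was 6.6 kb on chromosome 14 from 20830201 to 20836800, and from U2 to U3 10.8 kb on chromosome 1 from 59098801 to 59109600.

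Most bins that changed in KO cells did not make that same change in WT cells. For the exchanges below, both the same change and its reverse were more frequent among them than among all bins. Of the bins changed in KO, 13.5% made the same change in WT and 14.3% the reverse, 25.9% were stable in WT at the KO-NT state, 35.4% were stable in WT at the KO-GS state, and 10.9% did otherwise. For U1 to U2 the share that made the same change in WT was 14.7%, against 3.01% of all bins, for U2 to U1 14.2% against 2.59%, and for U3 to U4 8.76% against 0.299%. The share that made the reverse change was 12.8% for U1 to U2, against 2.59% of all bins. It was 19.1% against 3.01% for U2 to U1, and 23.6% against 0.733% for U3 to U4. All bins include those that were in another state in WT-NT and so could not make the change. Of the WT-NT bins in the starting state, 4.34% went from U1 to U2, 12.4% from U2 to U1, 3.89% from U3 to U4 and 34.6% from U4 to U3. These are well above the shares of all bins. How many of the bins changed in KO were in the starting state in WT-NT was not counted, so no excess is read from these shares. Among bins changed in KO that were stable in WT at either KO state, 57.8% were at the KO-GS state. This share depended on the exchange, at 76.3% for U1 to U2, 75.7% for U1 to U3 and 59.8% for U3 to U4, but 31.6% for U2 to U1 and 36.4% for U2 to U3. Of all bins of these exchanges, stable or not in WT, 50.2% of U1 to U2 bins were stably U2 in WT, 43.5% of U1 to U3 bins were stably U3, and 44.2% of U2 to U1 bins were stably U2. For bins changed in WT, 50.6% of those stable in KO were at the WT-GS state.

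In 365 windows U4 was at least 10 points higher in KO-GS than in KO-NT. The median U4 share in these windows was 8.2% in KO-NT, 22.8% in KO-GS, 24% in WT-NT against 19% in WT-GS. U4 was lower in GS than in NT in WT cells in 324 of the 365 (88.8%). That is close to the 87.6% of all 1497 windows with at least 10% U4 in WT-NT or WT-GS, so the WT direction is not particular to windows of KO gain. Over all 24712 windows the KO and WT differences in U4 had a Pearson r of -0.522 and a Spearman rho of -0.274, whereas r was -0.0251 for marked sequence, -0.0311 for U2 and -0.0272 for U3. These correlations are across windows of 2 pairs of segmentations that share no library. Neighbouring windows are not independent, and both U4 differences are 0 where a window holds no U4. U4 was higher in GS on all 19 autosomes in KO cells and lower on all 19 in WT cells. Windows with more U4 have room for larger differences both ways, so the negative r is no separate sign of opposite change at single loci. The part of r that goes with the amount of U4 in a window was not tested.

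The SIRT7 peaks that the authors listed for WT-GS cells were set against the KO changes, each peak by the bin at its midpoint. Of 2272 autosomal peaks, 1899 (83.6%, Wilson 95% interval 82.0 to 85.0%) lay in bins that were U1 in both KO segmentations, against 68.8% of all bins. Changed bins held 208 peaks (9.15%, interval 8.04 to 10.4%), against 10.8% of all bins. Lost bins held 118 peaks (5.19%, interval 4.35 to 6.18%, against 3.48% of bins), gained bins 63 (2.77%, interval 2.17 to 3.53%, against 4.69%) and switched bins 27 (1.19%, interval 0.818 to 1.72%, against 2.63%). The intervals cover counting error only and treat peaks as independent, which neighbouring peaks are not.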

How the data were processed

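The authors deposited 1 segmentation for each genotype and treatment, whose values are state names (U1 to U4) for stretches of whole 200 bp bins. Tools named in the submitters' processing notes, without roles, were deepTools 2.4.2, MACS 1.4.2, Bowtie, Trimmomatic 0.36, FastQC 0.11.3 and SAMtools 0.1.19, with mm9 and hg19 as builds. The sources used here do not say how the states were modelled or whether jointly for the 4 conditions. Chromosome ends matched mm9. Read depth is unknown, so no precision is attached to a state call. The peak score that the authors deposited with the SIRT7 lists was not used beyond the listing itself.

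Each segmentation was expanded to bins on chromosomes 1 to 19 and compared bin by bin with Python 3.11.15, numpy 2.4.6, pandas 2.3.3 and scipy 1.17.1, and the functions were tested on simulated data. Loci named are the 10 most changed 100 kb windows, the 3 largest gains and losses of U2, U3 and U4, the longest runs of the 6 most frequent exchanges and the 10 longest gained and lost domains. Only the first or the first 3 runs of each exchange and the leading domains are printed. Alternatives were 1 kb bins, joining of segments under 1 kb, leaving out the initial 3 Mb or single autosomes, joining domains within 1 kb, and 1 Mb windows. The grouping of windows by U3 and U4, the exchanges in 10 parts of each chromosome and the count of bins in which 1 segmentation differed were chosen after the data were seen. The comparison and its rules were chosen with earlier results of these data known. Chromosomes X, Y and M, cell type markers and gene lists were not used here, the last 2 because they need gene positions on mm9.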

Additional observations from a re-analysis of the deposited data

Results flagged for a closer look

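In 6 results the sign of the difference from NT to GS, read in 200 bp bins, was opposite in KO and WT cells. For the U3 share and the flow from U1 to U3, 1 genotype had no settled direction. With 1 segmentation per condition none of these differences was tested, and KO-NT, which had the fewest segments and the lowest U4 share of the 4 segmentations, enters every KO value.

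The U4 share of the autosomes was 0.843 percentage points higher in GS in KO cells and differed by -0.413 points in WT cells, with all 19 autosomes on the same side within each genotype. The U3 share differed by -0.0614 points in KO and 0.708 in WT, and the KO value changed sign with coarser bins. The net flow from U1 to U3 was 17.3 Mb in KO and -0.0486 Mb in WT. That WT flow was nearly even, larger toward U3 on 11 chromosomes and toward U1 on 8. The net flow from U1 to U4 was 1.70 Mb in KO and -0.363 Mb in WT. That KO value was 0.213 Mb in 1 kb bins and 0.0890 Mb with segments under 1 kb joined. The net flow from U2 to U3 was -3.24 Mb in KO, toward U2, and 6.82 Mb in WT, toward U3. The net flow from U3 to U4 was 15.6 Mb in KO and -10.7 Mb in WT, where it ran from U4 to U3. That KO value was 8.30 Mb with short segments joined, and the U4 share difference 0.380 points.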

How the results depend on the processing

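Every exchange kept its net direction under both coarser readings. Values are given first for 1 kb bins and then with segments under 1 kb joined. The changed share of 10.8% was 10.4 and 10.2%, 11.1% without the initial 3 Mb, and between 10.7% (without chromosome 11) and 10.9% (without chromosome 7) with 1 autosome left out. GS minus NT was -1.17 and -1.15 points for U1, 0.608 and 0.674 for U2, 0.498 and 0.380 for U4, and for U3, which reversed, 0.0618 and 0.100. Without the initial 3 Mb these 4 were -1.24, 0.436, 0.863 and, for U3, -0.0629. Net flows were 11.6 and 11.6 Mb from U1 to U2, 17.1 and 16.8 from U1 to U3, 0.213 and 0.0890 from U1 to U4, -4.82 and -6.03 from U2 to U3, 1.38 and 1.02 from U2 to U4, and 10.7 and 8.30 from U3 to U4. The cause of the smaller U4 flows was not tested.

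Border, inserted, filled and mixed runs held 29.9, 18.4, 15.5 and 36.1% of the changed length in 1 kb bins and 33.5, 18.8, 16.9 and 30.8% with short segments joined, and runs of 10 kb or more held 19.2 and 18.9%. Gained marks were 45.8 and 47.2% border, 19.1 and 19.5% new domain and 33.05 and 32.96% closed gap. Lost marks were 44.7 and 46.4% border, 28.5 and 28.4% opened gap and 23.9 and 24.6% whole domain. The ratio of gain to loss of U2 was 0.595 and 0.612 in windows with U2 but no U3 or U4, 0.559 with windows grouped by WT-GS and 0.570 without the distal part of the chromosomes. In windows over 50% U3 and U4 it was 5.66 in 1 kb bins and 5.11 without the distal part of the chromosomes. The readings of run length, marks, surroundings and chromosome parts were added after seeing the data. Lost domains numbered 5136 with domains within 1 kb joined and 4488 with short segments joined, and gained ones 7519 and 5792. The most changed window held 35.8% changed bins at 1 Mb, and 9 of the 10 named windows stayed among the 10 most changed with short segments joined.

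No paired analysis was possible because each segmentation combines both replicates, so that no replicate was left out either. States at transcription starts were not run, since an mm9 annotation was not used here.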
